A study of Homo sapiens with 6 samples.

Results

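The TGF-beta ligands, receptors and targets examined here are 9 genes chosen by name: the ligands TGFB1, TGFB2 and TGFB3, the latent ligand binding protein LTBP1, the receptors TGFBR1 and TGFBR2, the feedback inhibitor SMAD7, and the target genes CCN2 and TGFBI. They are 9 of the 37902 genes in the deposited table of normalised counts, and all 9 were among the 14684 genes with a mean of at least 10 over the libraries. By limma none of the 9 was called between the lines, where 0.170% of all tested genes were, and DESeq2 with the replicate number as a term called 1, TGFBI, where 2.67% were. TGFBI was 1.75-fold higher in POLDIP2 KO and had the smallest p value of the 9. It was not called by limma with that term (limma adjusted p = 0.0713) or by DESeq2 without it (DESeq2 adjusted p = 0.283). The libraries numbered 1 carried the most TGFB2, SMAD7, CCN2, LTBP1 and TGFBI in both lines.

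The TGF-beta ligands are secreted in a latent complex, in which a latent TGF-beta binding protein anchors the inactive ligand to the extracellular matrix until it is released. Active ligand joins the type II receptor TGFBR2 to the type I receptor TGFBR1, which phosphorylates SMAD2 and SMAD3, and these enter the nucleus with SMAD4 and switch on genes of the matrix and cytoskeleton as well as the inhibitor SMAD7. In the retinal pigment epithelium (RPE), the pathway is best known for driving epithelial cells towards a contractile, matrix-secreting state.

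The cells were ARPE-19, an established human line of RPE origin, compared as wildtype cells (WT) and as a line with a knockout of POLDIP2 (POLDIP2 KO), a gene linked to age-related macular degeneration. POLDIP2 KO cells were transduced with a lentivirus that encodes SpCas9 and a guide RNA to its coding sequence, selected with puromycin and expanded. No cloning step and no control vector in WT are described for these libraries, so the loss of POLDIP2 cannot be told apart from transduction, Cas9 and selection. Both lines were kept in serum-containing medium under regular maintenance with no further treatment, and RNA was taken at day 3. Each line gave 3 libraries labelled as biological replicates 1 to 3, with 39657489, 36517259 and 35515478 recovered reads in WT replicates 1 to 3 and 31532797, 45795509 and 38293289 in POLDIP2 KO. The labels do not say what a replicate number shares, so p values measure the spread between these 6 libraries.

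The targeted gene was read first: POLDIP2 had 3919, 4827 and 4798 normalised counts in WT replicates 1 to 3 and 1063, 1248 and 1143 in POLDIP2 KO. Every POLDIP2 KO library lay below every WT library, and the log2 change was -1.97 (standard error 0.125, limma adjusted p = 0.00961). The RPE label was checked against 15 marker genes. The general epithelial keratins KRT8 and KRT18 and the RPE transcription factors MITF, OTX2 and PAX6 were present in every library, with 34222 to 48481 normalised counts for KRT8 and 574 to 883 for OTX2. The visual cycle enzyme RPE65 and the thyroxine and retinol carrier TTR were listed at 0 in all 6 libraries, and TYR, an enzyme of pigment synthesis, had no more than 3 reads, taken as the floor, in any library. The retinol dehydrogenases RDH10 and RDH5 had 3518 to 10620.4 and 188 to 322, the chloride channel gene BEST1 had 61.4 to 669, and SERPINF1, a secreted factor, had 49.6 to 168. The remaining markers were low: RLBP1 had 19.7 to 68.2 normalised counts, PMEL 36.7 to 103 and TYRP1 1.04 to 27.1. Markers of the RPE were thus present in part, without RPE65 or TTR and with TYR at or under the floor.

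The promoters of CCN2, TGFB2 and TGFBI are shown because these were the 3 most abundant of the 9 genes per kilobase of exon and each has a single annotated start. Each run holds the 250 bases before the start (RefSeq, GRCh38.p14), written 5′ to 3′ on the strand of the gene, at chr6:131951373-131951622 (minus strand) for CCN2, chr1:218345086-218345335 (plus strand) for TGFB2 and chr5:136028738-136028987 (plus strand) for TGFBI. Capitals mark CAGAC, the letters of a SMAD binding element, and GGAATG, the letters bound by TEAD factors, searched on both strands (GTCTG and CATTCC in reverse).
CCN2: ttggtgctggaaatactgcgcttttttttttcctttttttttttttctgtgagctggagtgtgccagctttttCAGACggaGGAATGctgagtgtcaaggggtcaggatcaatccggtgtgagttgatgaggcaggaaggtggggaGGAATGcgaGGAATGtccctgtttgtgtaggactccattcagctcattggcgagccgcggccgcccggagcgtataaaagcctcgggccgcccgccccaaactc
TGFB2: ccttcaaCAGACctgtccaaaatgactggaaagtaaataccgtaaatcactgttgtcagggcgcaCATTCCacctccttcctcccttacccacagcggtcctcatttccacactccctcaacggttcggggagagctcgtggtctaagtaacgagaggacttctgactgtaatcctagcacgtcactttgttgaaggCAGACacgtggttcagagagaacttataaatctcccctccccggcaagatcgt
TGFBI: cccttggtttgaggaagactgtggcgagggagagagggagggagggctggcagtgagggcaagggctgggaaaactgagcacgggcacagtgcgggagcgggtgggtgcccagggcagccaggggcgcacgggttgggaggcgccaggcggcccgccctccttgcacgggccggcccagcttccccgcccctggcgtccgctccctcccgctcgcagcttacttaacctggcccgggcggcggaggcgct
CCN2 held 1 CAGAC, 177 bases before the start, and 3 GGAATG, at 169, 104 and 95 bases before it. Of 34943 promoters of this length, 38.0% held CAGAC in either direction, 11.9% held GGAATG and 0.0830% held 3 or more GGAATG. TGFB2 held 2 CAGAC, at 243 and 53 bases, and 1 GGAATG in reverse at 185 bases, whereas the 250 bases of TGFBI held none of these letters. RefSeq promoters were matched for all 9 genes, 22 promoters in total, and in 6 genes at least 1 promoter held CAGAC, in 3 genes GGAATG. These counts are per gene, over as many as 8 promoters for TGFBR1. The shares above are per single promoter, so the counts cannot be compared with them. A match of letters is a description and does not show binding.

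Of the 3 ligands, TGFB2 made up most of the transcripts in every library. Counts were divided by the length of all annotated exons in kilobases (GENCODE release 44) to compare genes, since longer transcripts yield more reads. TGFB2 took 90.6%, 80.9% and 83.4% of the summed ligand level per kilobase in WT replicates 1 to 3, and 84.9%, 75.3% and 83.1% in POLDIP2 KO. TGFB1 took 8.96%, 18.7% and 15.7% in WT replicates 1 to 3, and at most 23.9% in POLDIP2 KO. TGFB3 took under 1% of the ligand level in 5 libraries and 3.08% in POLDIP2 KO replicate 1. The order TGFB2, TGFB1, TGFB3 held in all 6 libraries, and the shares of the lines overlapped for all 3.

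**Figure D1:**
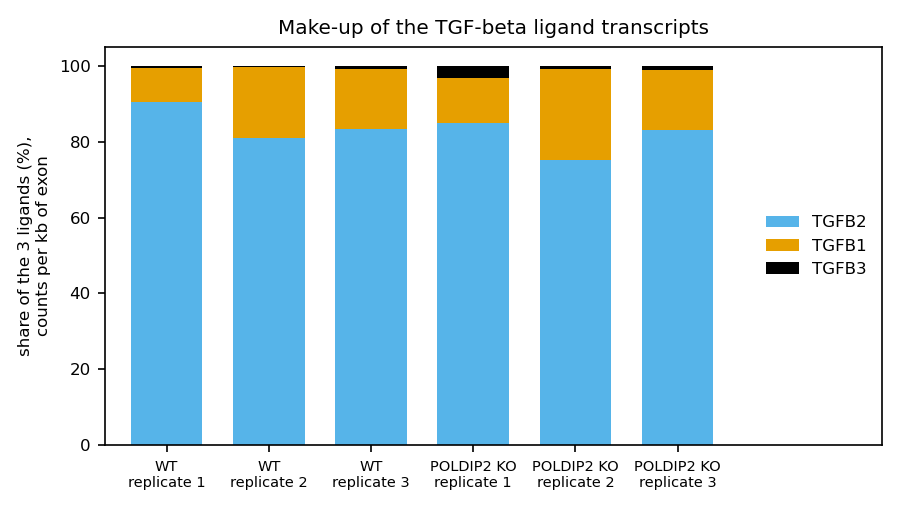
Stacked bars give the share (%) of TGFB2, TGFB1 and TGFB3 in the summed ligand level, in normalised counts per kilobase of exon, for each of the 6 libraries. TGFB2 fills 75.3% to 90.6% of every bar, and TGFB3 is widest in POLDIP2 KO replicate 1, at 3.08%.

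TGFB1 (ENSG00000105329, chr19:41301587-41353922 on GRCh38, minus strand) encodes the ligand most widely found in tissues. It had 1623, 2364 and 1951 normalised counts in WT replicates 1 to 3, and 2107, 2277 and 1630.4 in POLDIP2 KO. The lines overlapped, with means of 1979 ± 371 and 2005 ± 335 (± SD, n = 3 libraries each). On the scale of log2(normalised count + 1), which understates the change of low genes, the difference was 0.02 (standard error 0.184) with a 95% interval from -0.41 to 0.46. These are bulk samples, in which fewer cells of a type and less RNA per cell cannot be told apart, and this holds for every level given here.

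TGFB2 (ENSG00000092969, chr1:218345336-218444619, plus strand), the ligand prominent in the eye, had 30419, 18924 and 19167 normalised counts in WT replicates 1 to 3. In POLDIP2 KO the values were 27617, 13268 and 15756. Both libraries numbered 1 were high and the lines overlapped, so the difference of -0.31 had a wide interval (95% interval -1.04 to 0.42). It was -0.09 without WT replicate 1 or without POLDIP2 KO replicate 2, and -0.62 without POLDIP2 KO replicate 1. Within each pair of same-numbered libraries TGFB2 was lower in POLDIP2 KO, with log2 ratios of -0.14, -0.51 and -0.28. With a block for replicate number, the interval narrowed to -0.55 to -0.08, and the limma adjusted p value was 0.312. Its exons overlap those of the short gene TGFB2-OT1 on the same strand, which can take or lend reads.

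TGFB3 (ENSG00000119699, chr14:75958097-75983011, minus strand) was the least abundant of the 9 genes per kilobase in WT. It had 113, 76.3 and 159.8 normalised counts in WT replicates 1 to 3, and 866, 122 and 158 in POLDIP2 KO. The single library POLDIP2 KO replicate 1 stood far above the other 5, at 6.19 times the mean of the other 2 POLDIP2 KO libraries, while WT replicate 1 was at 0.961 times the mean of its own. The log2 change of 1.19 (95% interval -0.52 to 2.91, limma adjusted p = 0.981) rested on that library and was 0.33 without both libraries numbered 1. POLDIP2 KO replicate 1 also held 614 normalised counts of COL1A2 and 124 of COL3A1, both genes of fibrillar collagen, against at most 9.45 and 17.9 in any other library. The small matrix proteoglycan BGN had 22.1 there and was listed at 0 elsewhere.

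LTBP1 (ENSG00000049323, chr2:32946953-33399509, plus strand) encodes the binding protein that tethers latent ligand to the matrix. Its normalised counts were 922, 517 and 439.6 in WT replicates 1 to 3, and 1156, 689.5 and 754 in POLDIP2 KO. WT replicate 1 lay above POLDIP2 KO replicates 2 and 3, so the lines overlapped, and the log2 change was 0.51 (95% interval -0.25 to 1.26). LTBP1 was higher in POLDIP2 KO in all 3 pairs, by 0.33, 0.42 and 0.78, and with the replicate block the interval was 0.17 to 0.85 (limma adjusted p = 0.261).

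The type I receptor TGFBR1 (ENSG00000106799, chr9:99104038-99154192, plus strand) had 2366, 2521 and 2115 normalised counts in WT replicates 1 to 3, and 2714, 1961 and 1879 in POLDIP2 KO. Its highest and its lowest values were both in POLDIP2 KO, and the log2 change was -0.11 (95% interval -0.50 to 0.27). The type II receptor TGFBR2 (ENSG00000163513, chr3:30606601-30694142, plus strand), which binds the ligand first, had 1631, 2051 and 2049 in WT and 1751, 2575 and 2502 in POLDIP2 KO. It was the member with the opposite replicate pattern, being lowest in replicate 1 of both lines. TGFBR2 was higher in POLDIP2 KO in all 3 pairs, by 0.10, 0.33 and 0.29. Its log2 change of 0.24 had an interval from -0.19 to 0.67, or from 0.00 to 0.48 with the replicate block (limma adjusted p = 0.444). The per-kilobase levels of TGFBR1 and TGFBR2 overlapped in WT, at 292 ± 25.6 and 279 ± 35.3.

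SMAD7 (ENSG00000101665, chr18:48919853-48950965, minus strand), which blocks the type I receptor and is itself induced by the pathway, had 1598, 789.6 and 1017 normalised counts in WT replicates 1 to 3. In POLDIP2 KO it had 1438, 707 and 1074. Replicate 1 was highest and replicate 2 lowest in both lines, whereas the lines differed by -0.08 on the log2 scale (95% interval -0.86 to 0.71). Same-numbered libraries differed by -0.15, -0.16 and 0.08.

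CCN2 (ENSG00000118523, chr6:131948176-131951372, minus strand), or connective tissue growth factor, is a secreted matrix protein induced by TGF-beta and by the YAP and TEAD factors. It had 19491, 11518 and 8131 normalised counts in WT replicates 1 to 3, and 28934, 10325 and 11615 in POLDIP2 KO. Replicate 1 was at 1.98 times the mean of the other 2 libraries in WT and at 2.64 times in POLDIP2 KO, and the remaining 4 libraries overlapped. The log2 change of CCN2 was 0.31 with a 95% interval from -0.77 to 1.39, and it was -0.16 without POLDIP2 KO replicate 1.

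TGFBI (ENSG00000120708, chr5:136028988-136063818, plus strand) encodes a secreted matrix protein named for its induction by TGF-beta, mutated in corneal dystrophies, and was the most abundant of the 9 genes. Its normalised counts were 88365, 41610.4 and 51545 in WT replicates 1 to 3, and 129118, 81954 and 96553 in POLDIP2 KO. The lines overlapped through 1 library alone, WT replicate 1, which lay above POLDIP2 KO replicate 2 and below the other 2. The means were 60507 ± 24632 and 102541 ± 24145 (± SD, n = 3 libraries each). The log2 change was 0.81 (standard error 0.307, 95% interval 0.08 to 1.54), or 1.75-fold with an interval from 1.06 to 2.90.

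TGFBI ranked 716 of the 14684 genes by p value (unadjusted limma p = 0.0335, adjusted p = 0.687), and the exact two-sided permutation p value was 0.2. It was higher in POLDIP2 KO in all 3 pairs, by 0.55, 0.98 and 0.91, and 0.94 was the difference when both libraries numbered 1 were left out, a setting added after seeing the data (limma adjusted p = 0.203). With the replicate block, the interval of TGFBI narrowed to 0.55 to 1.07, and the adjusted value of 0.0713 by limma stayed above the threshold. DESeq2 on the recovered reads gave an adjusted p value of 0.283 without the block and 2.47e-09 with it, the sole setting in which 1 of the 9 genes was called.

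**Figure D2:**
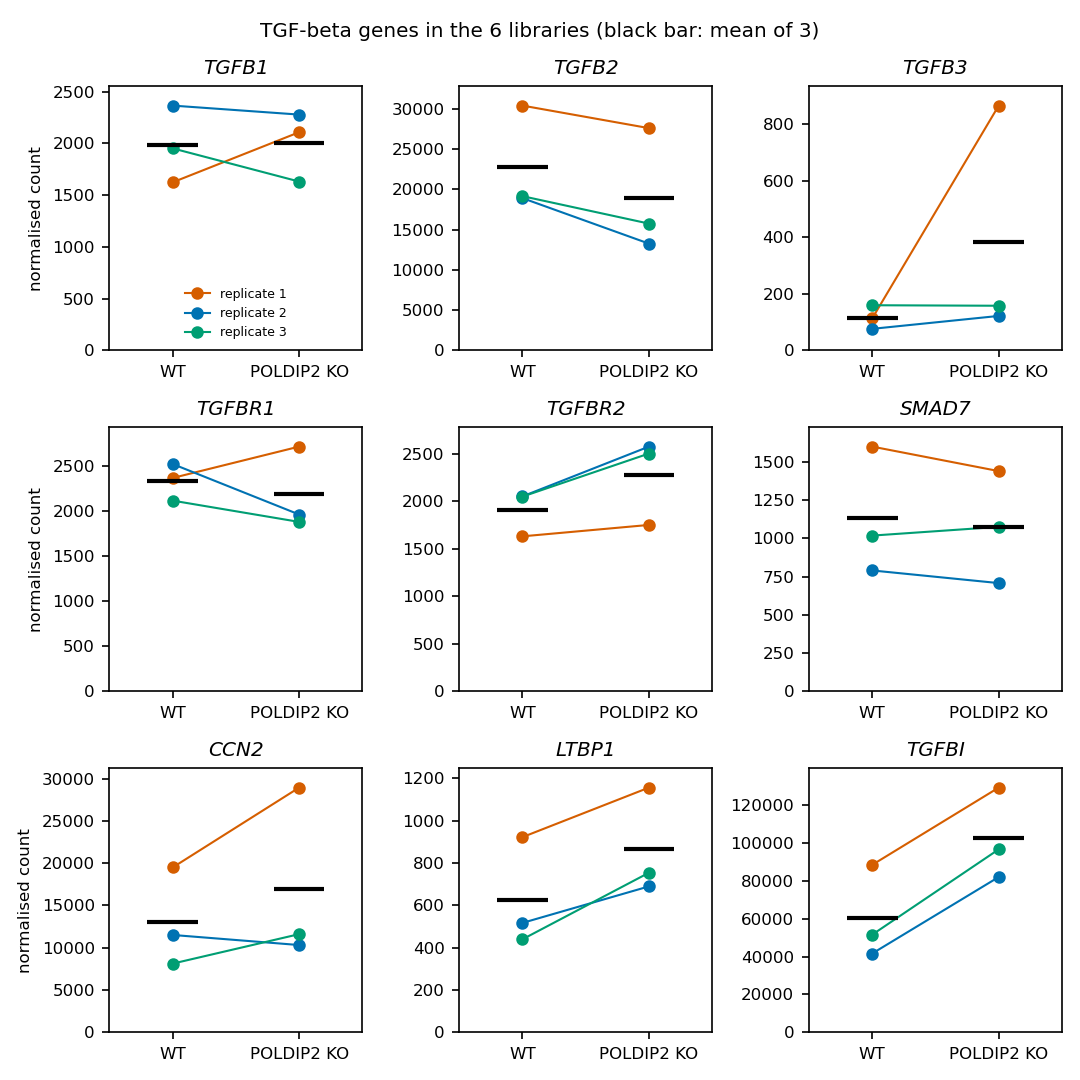
Each panel plots the normalised count of 1 gene in the WT and POLDIP2 KO libraries, with lines joining libraries of the same replicate number and black bars at the mean of 3. Replicate 1 is highest in both lines for TGFB2, SMAD7, CCN2, LTBP1 and TGFBI, and for TGFB3 only POLDIP2 KO replicate 1 stands apart, at 866.

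For the 9 genes as a group, limma called 0 of 9 between the lines at the study's thresholds (adjusted p below 0.05, change above 1.5-fold). It called 0.170% of all tested genes (25 of 14684). The study used these thresholds with DESeq2, not limma. DESeq2 on the recovered reads without the block called 0 of the 9 and 248 of the 14684 genes. Adjusted p values ran from 0.687 to 1.000 by limma. At an unadjusted limma p value under 0.05, 1 of 9 passed (TGFBI), against 6.48% of all genes. In none of the 9 did every POLDIP2 KO library lie above every WT library, as in 5.46% of all genes, or below, as in 5.44%. Exact two-sided permutation p values ran from 0.200 to 0.900, where 3 libraries against 3 cannot give less than 0.1. The median log2 change of the 9 was 0.24, with 6 higher and 3 lower, beside -0.000 over all tested genes, and the median size of the change was 0.31 beside 0.13.

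Taken by pairs of same-numbered libraries, 3 of 9 genes (TGFBR2, LTBP1 and TGFBI) were higher in POLDIP2 KO in all 3 pairs, against 17.0% of all genes, and 1 (TGFB2) was lower in all 3, against 15.7%. With that number entered as a block, 4 of 9 passed at an unadjusted p value under 0.05 (the same 4), where 11.1% of all genes did. After adjustment limma called 0 of 9 with the block and 0.204% of all genes, and DESeq2 with the block called 1 of 9 (TGFBI) and 2.67% of all genes. The 95% intervals without the block reach beyond a 1.5-fold change for TGFB2, TGFB3, TGFBR2, SMAD7, CCN2, LTBP1 and TGFBI, so the lack of a call does not show that the lines were alike. For TGFB1 and TGFBR1 the intervals lay within 1.5-fold in both directions.

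**Figure D3:**
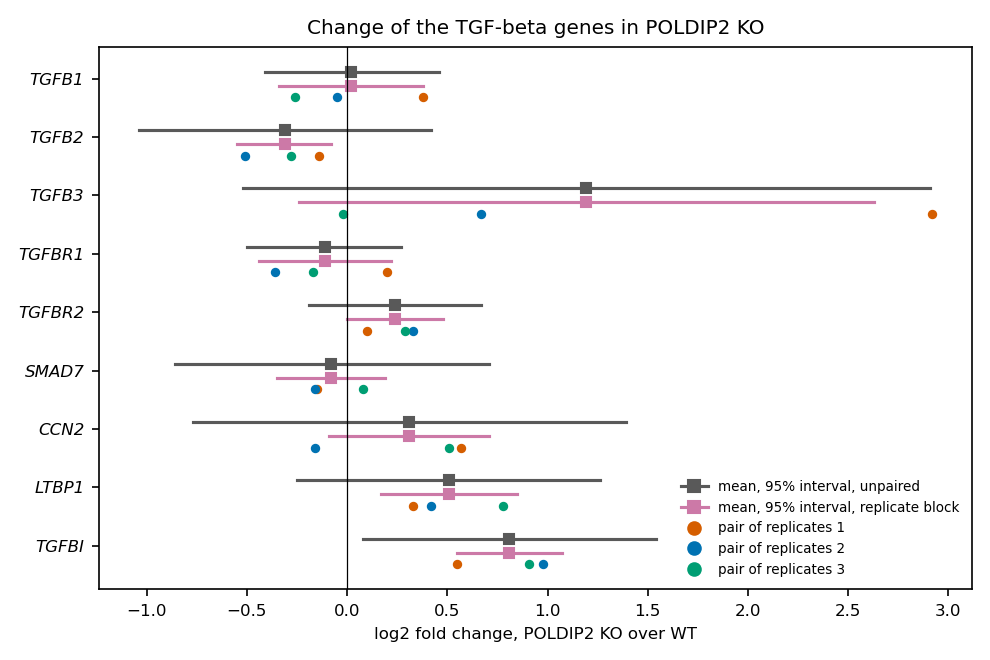
For each of the 9 genes, squares and bars give the log2 change of POLDIP2 KO over WT with its 95% interval from limma, without (grey) and with (pink) the replicate block, and circles give the 3 same-numbered pairs. The interval of TGFBI lies above 0 in both fits, 0.08 to 1.54 and 0.55 to 1.07, and the 3 pairs of TGFB3 are spread from -0.02 to 2.92.

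The libraries also differed by replicate number. Replicate 1 was the highest library of both lines for 5 of 9 genes, 55.6% against 22.0% of all tested genes, and the lowest of both for 1 (TGFBR2), against 20.5%. The ratio of replicate 1 to the mean of replicates 2 and 3 was 1.90 in WT and 1.45 in POLDIP2 KO for TGFBI, and 1.93 and 1.60 for LTBP1. It was 1.77 and 1.61 for SMAD7, and 1.60 and 1.90 for TGFB2. An F test of the replicate number in the blocked limma fit, added after seeing the data, gave an unadjusted p value under 0.05 to 6 of 9 genes, where 18.9% of all genes passed. After adjustment 0 of 9 passed, where 0.913% of all genes did, with the smallest adjusted limma values at 0.0611 for TGFB2, 0.0662 for SMAD7, 0.0766 for CCN2 and 0.0806 for TGFBI. In recovered reads, replicate 1 was the deepest library in WT and the shallowest in POLDIP2 KO.

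**Figure D4:**
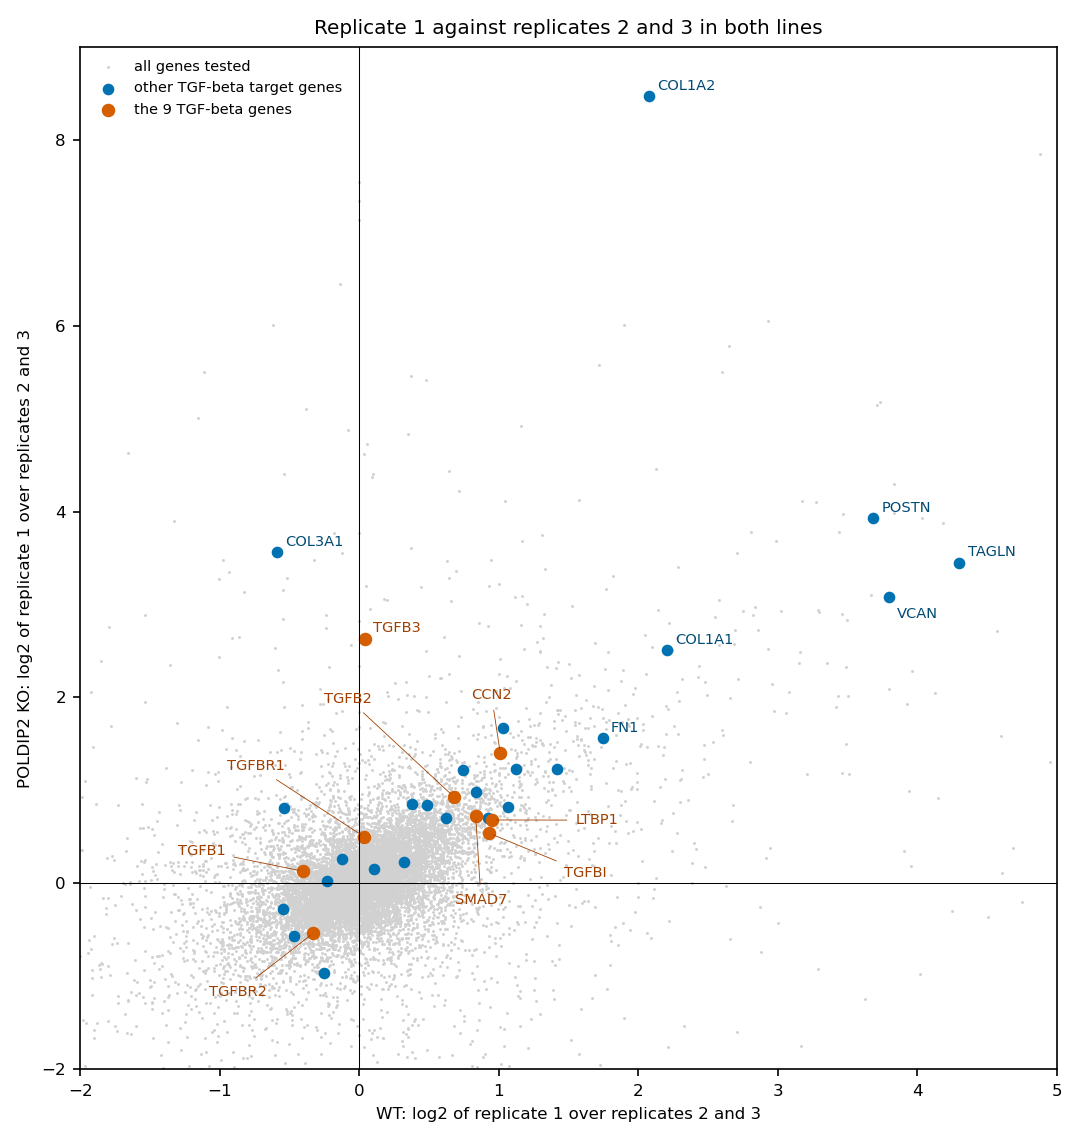
Each point is a gene, with the log2 ratio of replicate 1 over the average of replicates 2 and 3 in WT on the x axis and in POLDIP2 KO on the y axis, for all tested genes (grey, with 383 outside the axes), other TGF-beta target genes (blue) and the 9 genes (orange). TGFB2, SMAD7, CCN2, LTBP1 and TGFBI lie in the upper right with most of the target genes, TGFBR2 in the lower left, and TGFB3 high on the y axis alone.

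Compared per kilobase of exon in WT, the 9 genes lay far apart. TGFBI (5392 to 11451 normalised counts per kilobase), CCN2 (3478 to 8337) and TGFB2 (3128 to 5028) came first. The range of CCN2 over the 3 libraries overlapped with both others, while every value of TGFBI lay above every value of TGFB2. They stood at percentiles 99.1, 98.7 and 98.0 of all tested genes, and TGFB3, the lowest of the 9, at percentile 16.8. TGFB1 followed alone at 497 to 724. TGFBR1 (265 to 316), SMAD7 (200.1 to 405) and TGFBR2 (238 to 299) overlapped with each other, and LTBP1 (59.8 to 125) and TGFB3 (14.6 to 30.6) lay below with no overlap. In POLDIP2 KO the level of TGFBI was 13288 ± 3129 per kilobase and that of TGFB3 was 73.1 ± 80.3, the latter with its spread set by replicate 1.

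The rest of the pathway was examined in lists of genes by role, 105 genes beside the 9, of which 84 passed the filter on low values. In the limma comparison 0 of these 84 were called in either direction, beside 0.170% of all genes, and 1 (INHBA) had an unadjusted p value under 0.05, beside 6.48%. INHBA encodes the activin A subunit, a ligand that signals through the same SMAD2 and SMAD3. It had 364, 275 and 273 normalised counts in WT replicates 1 to 3 and 187, 188 and 158 in POLDIP2 KO, with every POLDIP2 KO library below WT. The log2 change of INHBA was -0.76 (95% interval -1.22 to -0.31, limma adjusted p = 0.313). FST, which encodes the activin antagonist follistatin, had 203, 309 and 305 in WT against 390.0, 417 and 333 in POLDIP2 KO, with a log2 change of 0.50 (limma adjusted p = 0.788). The difference of GDF6, a bone morphogenetic protein (BMP) ligand, was -2.64 (95% interval -5.53 to 0.25), with 501, 67.2 and 57.4 normalised counts in WT and 109, 7.33 and 7.94 in POLDIP2 KO. Its 3 pairs were all lower, by -2.18, -3.03 and -2.71, and the blocked interval was -3.41 to -1.87 (limma adjusted p = 0.0591).

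Of the 13 tested genes of the latent complex and its activation, 5 were higher in POLDIP2 KO in all 3 pairs and 0 were lower in all 3, beside 17.0% and 15.7% of all tested genes. LTBP3, a relative of LTBP1, had a log2 change of 0.48 (95% interval -0.08 to 1.04). FBN2, a fibrillin of the microfibrils that hold the latent complex, had 0.17, and THBS1, an activator of latent TGF-beta, had 0.47 with 42311 to 193628 normalised counts across the libraries. Of the 8 tested receptors and co-receptors, 3 were higher and 2 lower in all 3 pairs, against the same 17.0% and 15.7%. The co-receptor TGFBR3 had 1786, 1671 and 1825 normalised counts in WT and 1140.4, 1658 and 1410.0 in POLDIP2 KO, without overlap, with a log2 change of -0.34 (95% interval -0.70 to 0.02, limma adjusted p = 0.806). The BMP receptors ACVR1 and BMPR2 differed by 0.27 and 0.13. The endothelial co-receptor ENG was near the floor, at 0 to 3.69 normalised counts.

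The SMAD transducers SMAD2, SMAD3 and SMAD4 had log2 changes of 0.06, 0.16 and -0.07, and their 95% intervals ran from -0.18 to 0.31, -0.22 to 0.54 and -0.28 to 0.15. SMAD9 and SMAD1, which carry BMP signals, had 0.63 and 0.61, the latter with 298 normalised counts in WT replicate 1 against 849 to 1187 in the other 5 libraries. Among 12 inhibitors and feedback genes, 3 (25.0%) were higher and 1 (8.33%) lower in POLDIP2 KO in all 3 pairs, near the 17.0% and 15.7% of all genes. TGIF2, a repressor of SMAD complexes, had a log2 change of 0.29, NEDD4L, a ubiquitin ligase for SMADs, -0.32, and SMAD6, the inhibitor of BMP signalling, 0.76 (95% interval -0.51 to 2.02). With the replicate block the interval of SMAD6 was 0.45 to 1.06 (limma adjusted p = 0.105). DESeq2 called SMAD6 with the block (adjusted p = 0.000387) and not without it (adjusted p = 0.965). SMURF1, a ubiquitin ligase that works with SMAD7, was listed at 186 in WT replicate 1 and at 0 in the other 5 libraries.

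Many target genes were also highest in the libraries numbered 1, as were genes of the latent complex and its activation. Of the latter, 10 of 13 tested were highest in replicate 1 of both lines (76.9%). The same was seen in 2 of 2 CCN relatives and 5 of 12 inhibitors and feedback genes. It was seen in 1 of 8 receptors and co-receptors and 0 of 6 SMAD transducers. Of 25 tested target genes, 17 were highest in replicate 1 of both lines (68.0%, beside 22.0% of all genes), and 6 passed the F test of the replicate number after adjustment, where 0.913% of all genes did (limma adjusted p = 0.0208 for COL1A1, 0.0235 for COL4A1 and LOX, 0.0282 for TAGLN, 0.0200 for FN1 and 0.0363 for SPARC). TAGLN, an actin-binding protein of contractile cells, had 35183, 2228 and 1425 normalised counts in WT replicates 1 to 3 and 51738, 4102 and 5461 in POLDIP2 KO. FN1, which encodes fibronectin, had 78077, 21007 and 25817 in WT and 95744, 30298 and 34562 in POLDIP2 KO. For both genes each replicate 1 lay above every other library of either line.

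Between the lines, 11 of the 25 target genes were higher in POLDIP2 KO in all 3 pairs and 2 were lower in all 3, beside the 17.0% and 15.7% of all genes, with a median log2 change of 0.20. COL1A1, a chain of type I collagen, had 2147, 320.1 and 677 normalised counts in WT replicates 1 to 3 and 6956, 759.5 and 1953 in POLDIP2 KO. Its difference of 1.49 had an interval from -0.70 to 3.68 without the block (limma adjusted p = 0.981) and passed the threshold with the replicate block (limma adjusted p = 0.0436), the sole one of the 84 to do so. COL3A1 had 2.26 (95% interval -0.36 to 4.88), with pairs at 5.03, 2.24 and -0.48, and the cell cycle inhibitor CDKN2B had -0.20. The CCN relatives CCN1 and CCN3 differed from each other in sign, at -0.37 and 0.32.

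The BMP readouts ID1, ID2 and ID4, inhibitors of basic helix-loop-helix factors, were higher in POLDIP2 KO in all 3 pairs. ID1 had 569.7, 214 and 513 normalised counts in WT replicates 1 to 3 and 877, 541 and 918 in POLDIP2 KO, a log2 change of 0.93 (95% interval -0.02 to 1.88, limma adjusted p = 0.786). The differences of ID2 and ID4 were 1.19 and 1.13, at adjusted values of 0.981 and 0.883 by limma, and replicate 2 was the lowest library of both lines for all 3 genes. Of the 15 tested activin and BMP ligands and antagonists, 7 were lower in all 3 pairs and 1 was higher, beside 15.7% and 17.0% of all genes, with a median of -0.17. DESeq2 with the replicate block called 9 of the 84 genes, beside 2.67% of all genes: SMAD6, COL1A1, COL4A1, ID1, ID2 and ID4 higher, and GDF5, GDF6 and NOG lower. Without the block DESeq2 called 0 of the 84, beside 248 of the 14684 genes tested.

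**Figure D5:**
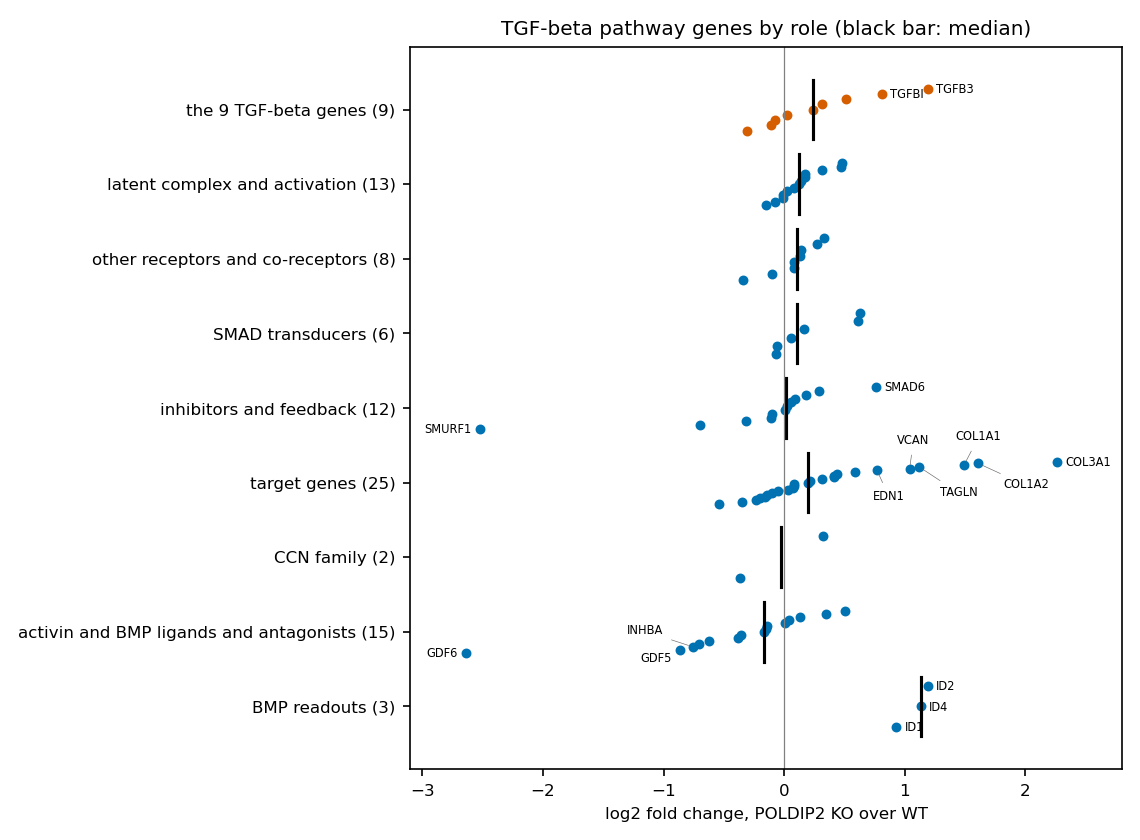
Each point is the log2 change of POLDIP2 KO over WT of 1 tested gene, with genes grouped by their role in the pathway, the number tested in brackets and a black bar at the median. The medians lie between -0.17 and 0.24 for all groups but 1, the 3 BMP readouts, which lie from 0.93 to 1.19.

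Markers of other cells were measured in the same libraries. The 6 fibroblast markers summed to 5533, 2033 and 2419 normalised counts in WT replicates 1 to 3 and to 8522, 1996 and 3829 in POLDIP2 KO, so the sum was highest in both libraries numbered 1. It was carried by PDGFRB, the most abundant, and FAP. These 2 of the 5 tested markers were highest in replicate 1 of both lines, beside 22.0% of all tested genes. The defining fibroblast genes PDGFRA and LUM had at most 29.1 and 9.84, and PDGFRA was highest in replicate 2 of both lines. Apart from PDGFRA, all the fibroblast markers were highest in POLDIP2 KO replicate 1, the library with the high TGFB3 value: COL6A3 had 105 there and at most 17.1 elsewhere, LUM 9.84 and at most 0.945, and THY1 70.1 and at most 54.3. FAP, a membrane protease, was higher in POLDIP2 KO in all 3 pairs, by 1.04, 1.81 and 2.90. Its log2 change was 1.92 (limma adjusted p = 0.686, or 0.129 with the replicate block), and DESeq2 called it with the block (adjusted p = 6.20e-06) and not without it (adjusted p = 0.925). The part of these markers in the replicate pattern and in the TGFB3 value was not tested. Of the leukocyte markers, AIF1 and CD3E were listed at 0 in every library. PTPRC, the defining leukocyte gene, was listed at 0 in WT and at 1.23 to 6.95 in POLDIP2 KO. These were 1, 4 and 7 reads in replicates 1 to 3, near the floor of 3 reads, and PTPRC was not among the genes tested. CD14 had 0 to 6.51 normalised counts over both lines, while CD68, a lysosomal protein, had 1679.7 to 2187 in every library. Of the endothelial markers, CDH5 was at or under the floor in each library, VWF had 11.5 to 41.5 and KDR had 161 and 106 in the WT and POLDIP2 KO libraries numbered 1, above the other 4. Within the RPE list, whose median log2 change was -0.03, SERPINF1 was below WT in every POLDIP2 KO library (log2 change -0.77, limma adjusted p = 0.822). The margin was narrow, with 103, 168 and 108 normalised counts in WT replicates 1 to 3 and 101, 74.1 and 49.6 in POLDIP2 KO. OTX2 and RLBP1 differed by -0.26 and -0.64. BEST1 differed by 0.78 (95% interval -1.15 to 2.71), and RDH10 by 0.44. Of the 12 tested RPE markers, 1 (RDH10) was higher in POLDIP2 KO in all 3 pairs and 3 (OTX2, RDH5 and SERPINF1) were lower, beside 17.0% and 15.7% of all genes.

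The 11357 genes with a mean of at least 100 were ranked by how closely their log2 values followed each of the 9 genes over the 6 libraries. The coefficients describe 6 points, which share libraries and the order of their replicates, and the best of many candidates is high by construction. TGFBI was followed most closely by SLC25A35 (r = 0.9970) and by B2M (r = 0.9943), the invariant chain of major histocompatibility complex class I. LTBP1 was followed by IL18 (r = 0.9993) and TRIM22 (r = 0.9985). CCN2 was followed by ASAH1 (r = 0.9989) and GLMP (r = 0.9986), 2 lysosomal proteins, and SMAD7 by NDUFB2 (r = 0.9980) and CDV3 (r = 0.9931). TGFB2 was nearest to EMD (r = 0.9969) and FAM110C (r = 0.9921), TGFB1 to FEM1A (r = 0.9878) and SUPT5H (r = 0.9796), and TGFB3 to LPCAT2 (r = 0.9882) and FZD2 (r = 0.9822). The nearest genes were PPP1R12C (r = 0.9935) and CTSF (r = 0.9819) for TGFBR1, and MAP3K21 (r = 0.9918) and MTX2 (r = 0.9916) for TGFBR2. B2M itself had 13163, 9153 and 10302 normalised counts in WT replicates 1 to 3 and 15727, 13332 and 14233 in POLDIP2 KO, so every POLDIP2 KO library lay above WT.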

How the data were processed

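RNA of WT and POLDIP2 KO ARPE-19 cells was analysed from the normalised counts (signal) that the authors deposited, made with Salmon 1.8, tximport on GRCh38 and size factors of DESeq2 1.34.0. The annotation release is not given in the sources used here. Columns were divided by their smallest value above 0, the step of 1 read, and 100.0% of values were whole within 0.001. The step is near 1 in WT replicate 2 and POLDIP2 KO replicate 3, so this check says little there. Depth, in recovered reads, is given in the report, and 3 reads, or 2.44 to 3.69 normalised counts, were taken as the floor. Intervals cover the spread between libraries.

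The comparison used limma 3.58.1 in R 4.3.3 (lmFit, eBayes with trend, prior degrees of freedom 3.02) after adding 1 and taking log2, for the 14684 genes averaging at least 10, with Benjamini-Hochberg adjustment over all of them. The steps were tested on simulated data. Values centred within each line correlated at 0.315, 0.137 and 0.129 between same-numbered libraries and at -0.259 to 0.147 between others. All 3 lay above 0.1, and the numbers were used to pair the libraries in the blocked fits. WT replicate 3 with POLDIP2 KO replicate 2 reached 0.147, above the same-number values of 0.137 and 0.129. Pairing by number is thus not shown for replicates 2 and 3, and the labels do not state it. Blocked values are printed where they matter, as an alternative that rests on this pairing. The alternatives were added counts of 0.5 and 5, dropping the filter or raising it to 50, quantile normalisation, recentring, eBayes without trend or robust, the replicate block, each library left out, and edgeR 4.0.16 and DESeq2 1.42.0 on recovered reads. The fit without both libraries numbered 1 and the F test of the replicate number were added after seeing the data.

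Named were the 9 genes, POLDIP2, 7 pathway genes whatever their values (1 of them is not reported here), in each list the genes called and the 3 with the smallest p value, and the 2 genes most like each of the 9. Other genes were named after their values were seen. The members and lists were chosen with earlier results of these data known. Of the listed genes, 2 were not analysed here. Symbols came from GENCODE release 44 for 34152 of 37902 genes. Figures used matplotlib 3.10.9 and pandas 2.3.3 under Python 3.11.15. Imaging, flow cytometry, qPCR and protein data were not analysed here.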

Additional observations from a re-analysis of the deposited data

How the results depend on the processing

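With 3 libraries a line, the 95% intervals of 7 of the 9 genes reached beyond 1.5-fold. TGFB2, TGFB3, TGFBR1, TGFBR2, LTBP1 and TGFBI kept their direction in all 19 alternatives, with log2 changes of 0.58 to 1.12 for TGFBI (adjusted p 2.47e-09 to 1.0 over limma, edgeR and DESeq2), 0.28 to 0.82 for LTBP1, -0.62 to -0.09 for TGFB2, 0.32 to 1.72 for TGFB3, 0.13 to 0.42 for TGFBR2 and -0.28 to -0.01 for TGFBR1. TGFB1 ranged from -0.11 to 0.16 with 1 library left out. It turned to -0.11 without WT replicate 1, -0.02 without POLDIP2 KO replicate 1, -0.08 without POLDIP2 KO replicate 2 and -0.16 without both libraries numbered 1. SMAD7 ranged from -0.32 to 0.20 and CCN2 from -0.16 to 0.65 with 1 library left out. SMAD7 turned to 0.20 without WT replicate 1 and 0.19 without POLDIP2 KO replicate 2, and CCN2 to -0.16 without POLDIP2 KO replicate 1. These rest on fewer samples. With the replicate block, 0 of the 9 genes and 1 other pathway gene were called, and 1 and 9 by DESeq2 with the block, where TGFBI had 0.81 (adjusted p = 2.47e-09). In limma the block changed no other call among the 9 and the 84 pathway genes, and among the marker lists DESeq2 called FAP with the block.

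Over all tested genes, the 12 higher and 13 lower calls of limma became 17 and 13 with the replicate block, 111 and 137 with DESeq2, and 184 and 208 with DESeq2 and the block. Lower calls numbered 6 at a mean of at least 50 and 8 with edgeR. Without both libraries numbered 1 there were 3 higher and 2 lower. With 1 library left out, higher calls ranged from 0 to 8 and lower calls from 0 to 5. Limma called 0 without WT replicate 2 or 3 or POLDIP2 KO replicate 2 or 3, where 862, 903, 869 and 693 passed 0.05 unadjusted. The causes were not tested. Not divided by length, TGFB2 made up 91.1% of the ligands in WT.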
